A study of Homo sapiens with 6 samples.

Results

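RNA of the Eph receptors and their ephrin ligands was examined in AsPC-1, an established human pancreatic cancer cell line. The members were the rows of the deposited gene table whose symbol was EPHA1, EPHA2, EPHA4, EPHB2, EPHB3, EPHB4, EFNA1, EFNA5, EFNB1 or EFNB2, that is 10 of 58735 genes. Of the 22 Eph and ephrin genes in the table, the 12 others are described after the members. The Vector group (n = 3 libraries) carried an empty lentivirus and was labelled WT, and the OE-MMP28 group (n = 3 libraries) carried a lentivirus for overexpression of MMP28, a secreted matrix metalloproteinase. According to the study's methods the MMP28 virus carried GFP and puromycin resistance and stable cells were selected with puromycin, and no cloning step was stated. The methods say in general that work on cultured cells was repeated independently, but neither they nor the labels tie the libraries of a group to separate cultures, so p-values measure the spread between these libraries, which may be technical. Values listed for a group of libraries follow the order of replicates 1, 2 and 3.

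Eph receptors form a large family of receptor tyrosine kinases that bind ligands on the surface of neighbouring cells. Receptors of class A prefer the A ephrins, which are held in the membrane by a lipid anchor, and receptors of class B prefer the B ephrins, which span the membrane. Binding triggers forward signalling in the cell with the receptor and reverse signalling in the cell with the ephrin. In epithelia the system is known for sorting cells into compartments, for contact repulsion and for setting cell-cell junctions, and EPHA2 is widely studied in carcinomas, pancreatic cancer included.

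Total counts per library were 13633249 to 14985715 in the Vector and 15568066 to 16691458 in the OE-MMP28 group, so the totals did not overlap, and 11.9% to 14.8% and 8.80% to 11.9% of counts were mitochondrial. MMP28 itself had 7.57 ± 2.11 FPKM (SD, 3 libraries) in the Vector group and 14 ± 1.01 FPKM (SD, 3 libraries) in the OE-MMP28 group, where FPKM is fragments counted, scaled to gene length and library total. Its log2 fold change was 0.90 (SE 0.19), at an adjusted p of 0.00226 (edgeR quasi-likelihood, Benjamini-Hochberg). Of the 5 markers of ductal epithelium examined, KRT8, KRT18, KRT19 and EPCAM were abundant and KRT7 was low, and their summed level was 2561 to 3499 FPKM in the Vector and 3503 to 4295 FPKM in the OE-MMP28 libraries. KRT19 alone of these passed the test, with a log2 fold change of 0.71. The summed levels of 4 macrophage, 4 fibroblast and 3 endothelial markers were at most 1.09, 0.144 and 0.230 FPKM in any library, and KDR had a count of 0 throughout. Among them PECAM1, an endothelial adhesion molecule, had counts of 0, 4 and 4 in the Vector libraries and 13, 21 and 30 in the OE-MMP28 libraries. PECAM1 passed the filter on low counts only through the OE-MMP28 group, so its counts are no evidence of a rise. The part of the PECAM1 counts and of the depth and mitochondrial differences in the results on the Eph family was not tested.

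Upstream sequences of the 4 members whose groups did not overlap are shown first, as examples from genes that moved in each direction. Such separation was common, with 38.1% of all genes tested, and EFNA1, which was called with overlapping groups, is not shown. They are the 250 bases before the RefSeq start site (GRCh38.p14), 5′ to 3′ on the strand of the gene. All 10 members matched a RefSeq entry. Capitals mark matches on either strand to the GC box GGGCGG, to CAGGTG (an E-box bound by ZEB and SNAI factors), to the AP-1 site TGANTCA or to TATAAA, and matches of one motif may overlap.
EPHA2, higher in OE-MMP28, chr1:16156070-16156319, minus strand: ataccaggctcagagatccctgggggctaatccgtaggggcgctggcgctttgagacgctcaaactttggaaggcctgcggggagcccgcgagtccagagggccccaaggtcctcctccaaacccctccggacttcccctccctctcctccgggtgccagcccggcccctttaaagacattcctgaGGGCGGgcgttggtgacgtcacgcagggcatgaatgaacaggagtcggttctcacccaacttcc
EFNB1, higher in OE-MMP28, chrX:68828771-68829020, plus strand: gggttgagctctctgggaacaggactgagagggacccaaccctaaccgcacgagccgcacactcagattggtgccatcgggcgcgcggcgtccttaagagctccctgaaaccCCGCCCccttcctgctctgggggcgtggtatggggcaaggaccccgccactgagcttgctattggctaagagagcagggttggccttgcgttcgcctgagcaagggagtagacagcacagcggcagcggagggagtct
EPHA4, lower in OE-MMP28, chr2:221574203-221574452, minus strand: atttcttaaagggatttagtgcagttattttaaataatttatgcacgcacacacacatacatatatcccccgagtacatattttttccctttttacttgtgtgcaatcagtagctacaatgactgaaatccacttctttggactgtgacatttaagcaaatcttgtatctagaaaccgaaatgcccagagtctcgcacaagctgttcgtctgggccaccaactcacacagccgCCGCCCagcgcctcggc
EPHA1, lower in OE-MMP28, chr7:143408857-143409106, minus strand: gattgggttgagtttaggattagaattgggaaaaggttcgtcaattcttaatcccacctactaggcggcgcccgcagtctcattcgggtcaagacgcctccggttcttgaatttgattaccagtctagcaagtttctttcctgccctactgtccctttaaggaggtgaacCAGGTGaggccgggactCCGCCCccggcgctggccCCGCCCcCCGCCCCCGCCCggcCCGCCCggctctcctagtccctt

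These windows differed in base composition. The stretch before EPHA4 had a GC content of 43.2%, against 63.2% for EPHA2, 63.6% for EFNB1 and 59.2% for EPHA1, where the median of 35116 RefSeq promoters was 58%. EPHA1 held 5 GC boxes and the only CAGGTG match of these 4 genes, and EPHA2, EFNB1 and EPHA4 held 1 GC box each. The windows of the members not shown had a GC content of 70% (EPHB3) to 84.8% (EPHB2), all above the median of 58%. Over the 10 members, a GC box was found in 10, CAGGTG in 3, TATAAA in 1 (EFNB2) and TGANTCA in 0. Of all RefSeq promoters of this length 42.6%, 17.5%, 10.7% and 6.57% held these motifs, in the same order. A match describes letters in the window and was not tested as a binding site.

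The members spanned a wide range of levels, with the same order in both groups. In the Vector group EPHA2 was highest at 51.6 ± 5.28 FPKM (SD, 3 libraries), followed by EFNB1 at 46.5 ± 5.75, EFNB2 at 36.1 ± 5.69, EFNA1 at 20.6 ± 11.6 and EPHB4 at 13.2 ± 0.546 FPKM. EFNA5 at 6.25 ± 0.803, EPHA4 at 4.80 ± 0.610, EPHB2 at 1.44 ± 0.202 and EPHA1 at 1.10 ± 0.120 FPKM (SD, 3 libraries) were lower, and EPHB3 had no count in this group. Among neighbours in this order, the libraries of EPHA2 and EFNB1, of EFNB2 and EFNA1, and of EFNA1 and EPHB4 overlapped, and the other neighbours did not. In the OE-MMP28 group the overlapping neighbours were EPHA2 with EFNB1 and EFNA1 with EPHB4.

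**Figure D1:**
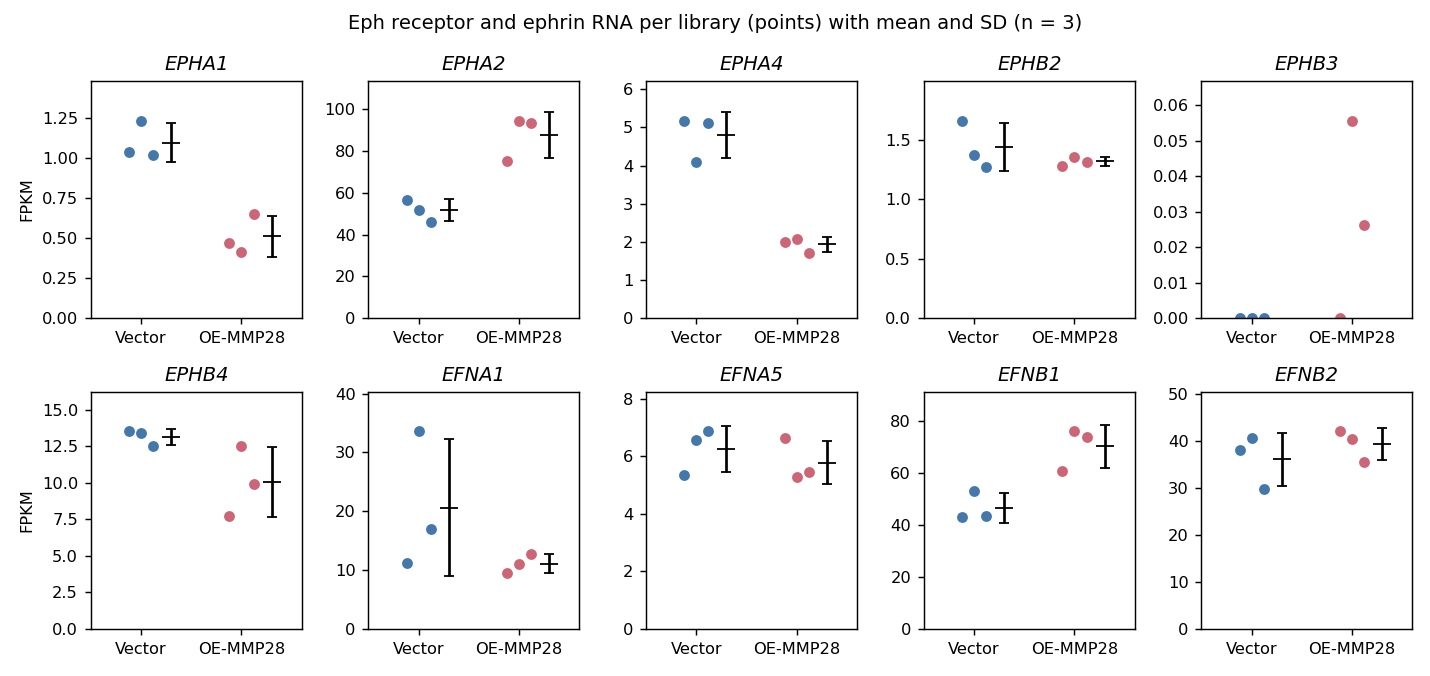
Level of each member in FPKM (vertical axis, from 0, own scale per gene) in the 3 Vector libraries (blue) and the 3 OE-MMP28 libraries (red), with replicates 1 to 3 from left to right and the mean and SD in black (not drawn for EPHB3, which was not tested). The points of EPHA1, EPHA2, EPHA4 and EFNB1 separate clearly by group, and a single Vector library stands high for EFNA1. Those of EPHB4 separate only barely in FPKM (lowest Vector 12.55, highest OE-MMP28 12.53) and overlap in normalized counts.

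Of the 10 members, 9 passed the filter on low counts, each with at least 31 counts in every library, and 5 of these 9 had an adjusted p under 0.05. The share over all 15319 genes tested was 23.4%. EPHA2 and EFNB1 rose (2 of 9, where 11.7% of all genes rose), and EPHA1, EPHA4 and EFNA1 fell (3 of 9, where 11.6% fell). With OE-MMP28 replicate 2 left out, 1 member rose and 1 fell, where 985 and 1044 of 15700 genes did. In such bulk libraries fewer cells that carry a transcript and less of it per cell cannot be told apart. The groups did not overlap in normalized counts for 4 of the 9, against 38.1% of all genes. The median log2 fold change of the 9 genes was -0.11, beside 0.014 for all genes. EPHA1 and EPHA4 had both an adjusted p under 0.05 and a move of more than 1 on the log2 scale, as did 7.38% of all genes.

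All 3 class A receptors among the members were called in the main fit, where 23.4% of all genes were. The members were chosen with earlier results of these data known, and EPHA1 lost its call in 3 of the 18 alternative fits. EPHA2 (ENSG00000142627, chromosome 1, 16124337 to 16156087, minus strand), the A receptor that epithelial tumour cells often carry in excess, had 56.8, 51.6 and 46.3 FPKM in the Vector libraries. In the OE-MMP28 libraries it had 75.2, 94.6 and 93.3 FPKM. Every OE-MMP28 library lay above every Vector library, and OE-MMP28 replicate 1 was the lowest of its group. The log2 fold change was 0.78 (SE 0.15, 95% interval 0.46 to 1.09), or 1.72-fold, at an adjusted p of 0.00103. EPHA2 kept its call in all 18 alternative fits, with a log2 fold change between 0.71 and 0.87.

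EPHA4 (ENSG00000116106, chromosome 2, 221418027 to 221574202, minus strand) encodes a receptor that binds ephrins of both classes. Its level was 5.18, 4.09 and 5.12 FPKM in the Vector libraries and 2.01, 2.07 and 1.72 FPKM in the OE-MMP28 libraries. The lowest Vector library was well above the highest OE-MMP28 library. This was a log2 fold change of -1.30 (SE 0.17, 95% interval -1.66 to -0.94), a level 0.406 times that of the Vector group, at an adjusted p of 2.39e-05. EPHA4 kept its call in all 18 alternative fits. Its tested neighbours on the chromosome, 91 genes within 10 Mb, had a median log2 fold change of -0.22, and with an offset for such neighbours the value of EPHA4 was -1.08. AC079834.2, an untested gene on the other strand with at most 4 counts in a library, covers 4.67% of its exon length.

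EPHA1 (ENSG00000146904, chromosome 7, 143390289 to 143408892, minus strand), the founding receptor of the family, was expressed at a low level. It had 75, 79 and 71 counts in the Vector libraries and 35, 31 and 52 counts in the OE-MMP28 libraries, that is 1.04, 1.23 and 1.02 FPKM against 0.468, 0.413 and 0.653 FPKM. The groups did not overlap. The fold change was -1.08 on the log2 scale (SE 0.28, 95% interval -1.67 to -0.49), at an adjusted p of 0.00873. With OE-MMP28 replicate 2 left out, the adjusted p was 0.0573, and with limma on log2(FPKM + 1) the log2 fold change was -0.47 at an adjusted p of 0.0686, in a range of 0.00338 to 0.0753 over the alternatives. ZYX on the other strand covers 1.73% of the exon length of EPHA1, and since the library kit as named does not mark strand, reads there cannot be assigned to either gene.

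Of the class B receptors among the members, EPHB4 and EPHB2 did not pass the test and EPHB3 was not tested. EPHB4 (ENSG00000196411, chromosome 7, 100802565 to 100827521, minus strand), the main receptor of ephrin-B2 in blood vessels, had 13.5, 13.4 and 12.5 FPKM in the Vector libraries. It had 7.76, 12.5 and 9.96 FPKM in the OE-MMP28 libraries. OE-MMP28 replicate 2 lay at the level of the lowest Vector library, with overlap in normalized counts, while OE-MMP28 replicate 1 was far below it. EPHB4 had a log2 fold change of -0.37 (SE 0.17, 95% interval -0.73 to -0.016), past 0.05 before adjustment (p 0.0413) and not after it (edgeR adjusted p 0.122). Its 184 neighbours had a median of -0.18, and EPHB4 had -0.20 once that offset was applied. SLC12A9 on the other strand covers 1.07% of its exon length.

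EPHB2 (ENSG00000133216, chromosome 1, 22710839 to 22921500, plus strand), a receptor known for positioning cells in the intestinal crypt, had 1.66, 1.37 and 1.27 FPKM in the Vector libraries. It had 1.28, 1.36 and 1.32 FPKM in the OE-MMP28 libraries, so the OE-MMP28 libraries lay within the range of the Vector libraries. Its log2 fold change was -0.11 (95% interval -0.48 to 0.26), at an adjusted p of 0.692, and without Vector replicate 1 it was 0.0072 at an adjusted p of 0.985. EPHB3 (ENSG00000182580, chromosome 3, 184561784 to 184582409, plus strand), a related crypt receptor, had counts of 0, 0 and 0 in the Vector libraries and 0, 4 and 2 in the OE-MMP28 libraries. It was not tested. A count of 0 allows up to 3 counts, or 0.180 to 0.220 CPM (counts scaled to library size) in these libraries, for counting error only, so a difference was not detectable at this depth.

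**Figure D2:**
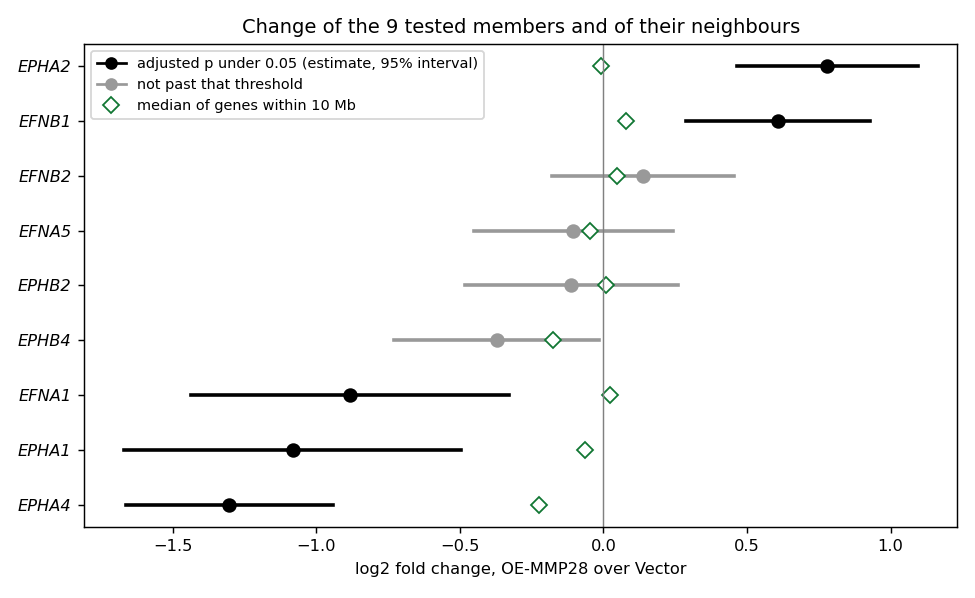
Log2 fold change of OE-MMP28 over Vector (horizontal axis) for the 9 tested members, with 95% intervals as lines, black for an adjusted p under 0.05 and grey otherwise. Open diamonds give the median log2 fold change of the tested genes within 10 Mb, which stays between -0.22 and 0.080, nearer to 0 than the 5 called members.

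Of the A ephrins, EFNA1 was lower and EFNA5 was within the spread of the libraries. EFNA1 (ENSG00000169242, chromosome 1, 155127460 to 155134857, plus strand), a principal ligand of EPHA2, had 11.1, 33.6 and 17.1 FPKM in the Vector libraries. In the OE-MMP28 libraries it had 9.46, 11 and 12.7 FPKM. Vector replicate 2 was far above all other libraries, and Vector replicate 1 lay among the OE-MMP28 libraries, so the groups overlapped. The log2 fold change was -0.88 (SE 0.27, 95% interval -1.44 to -0.33), at an adjusted p of 0.0206. Without Vector replicate 2 it was -0.34 at an adjusted p of 0.248, and DESeq2 gave -0.90 at an adjusted p of 0.172, in a range of 2.30e-05 to 0.248. The call for EFNA1 was lost in 7 of the 18 alternative fits.

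EFNA5 (ENSG00000184349, chromosome 5, 107376889 to 107670895, minus strand), an A ephrin best known from axon guidance, had 5.34, 6.55 and 6.86 FPKM in the Vector libraries. It had 6.63, 5.26 and 5.44 FPKM in the OE-MMP28 libraries. The groups were interleaved. Its log2 fold change was -0.10 (95% interval -0.45 to 0.24), at an adjusted p of 0.693.

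The B ephrins were, with EPHA2, the most abundant members. EFNB1 (ENSG00000090776, chromosome X, 68828997 to 68842147, plus strand), a transmembrane ligand known from the sorting of cells into separate domains, had 42.9, 53.2 and 43.5 FPKM in the Vector libraries. It had 60.9, 76.0 and 73.9 FPKM in the OE-MMP28 libraries. All OE-MMP28 libraries were above all Vector libraries. The log2 fold change was 0.61 (SE 0.15, 95% interval 0.29 to 0.93), or 1.52-fold, at an adjusted p of 0.00699. With OE-MMP28 replicate 2 left out, it was 0.53 at an adjusted p of 0.0653, the highest of a range from 0.00198.

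EFNB2 (ENSG00000125266, chromosome 13, 106489731 to 106535662, minus strand), the ligand that marks arterial endothelium and pairs with EPHB4, had 38, 40.6 and 29.7 FPKM in the Vector libraries. Its values in the OE-MMP28 libraries were 42.1, 40.6 and 35.6 FPKM, and the groups overlapped. The log2 fold change was 0.14 (95% interval -0.18 to 0.45), at an adjusted p of 0.559. AL138689.2 on the other strand covers 26.2% of the exon length of EFNB2, and had 57 to 120 counts per library where EFNB2 had at least 2200. With a kit that does not mark strand, reads in that stretch cannot be assigned to either gene, and how they were counted is not known. The level of EFNB2, its place below EFNB1 and its share of the B ephrins carry that uncertainty, whose size was not tested. EFNB1 passed the threshold and EFNB2 did not, but the difference between their changes was not tested.

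Within each class, the levels of the members are described as shares of the class sum in FPKM, over the 10 members only and without a test. EPHA2 made up 88.3% to 90.6% of the A receptor sum in the Vector libraries and 96.8% to 97.5% in the OE-MMP28 libraries. The ratio of EPHA2 to EPHA4 was 9.03 to 12.6 in the Vector libraries and 37.4 to 54.4 in the OE-MMP28 libraries. The ratio of EPHA2 to EFNA1 was 5.10, 1.54 and 2.71 in the Vector libraries and 7.95, 8.59 and 7.35 in the OE-MMP28 libraries. These ranges did not overlap, although EFNA1 alone did. EFNB1 made up 53% to 59.4% of the B ephrin sum in the Vector libraries and 59.1% to 67.5% in the OE-MMP28 libraries, so these shares overlapped. The summed A receptors were 57.5 ± 5.33 FPKM (SD, 3 libraries) in the Vector and 90.1 ± 10.8 FPKM (SD, 3 libraries) in the OE-MMP28 group, and the summed B ephrins were 82.7 ± 10.4 and 110 ± 6.82 FPKM (SD, 3 libraries). The summed A ephrins were 26.8 ± 12.1 and 16.8 ± 1.13 FPKM (SD, 3 libraries), with Vector replicate 1 at 16.5 FPKM among the OE-MMP28 libraries and Vector replicate 2 at 40.1 FPKM. The summed B receptors were 14.6 ± 0.711 and 11.4 ± 2.45 FPKM (SD, 3 libraries), with libraries of the groups overlapping at 13.8 and 13.9 FPKM.

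**Figure D3:**
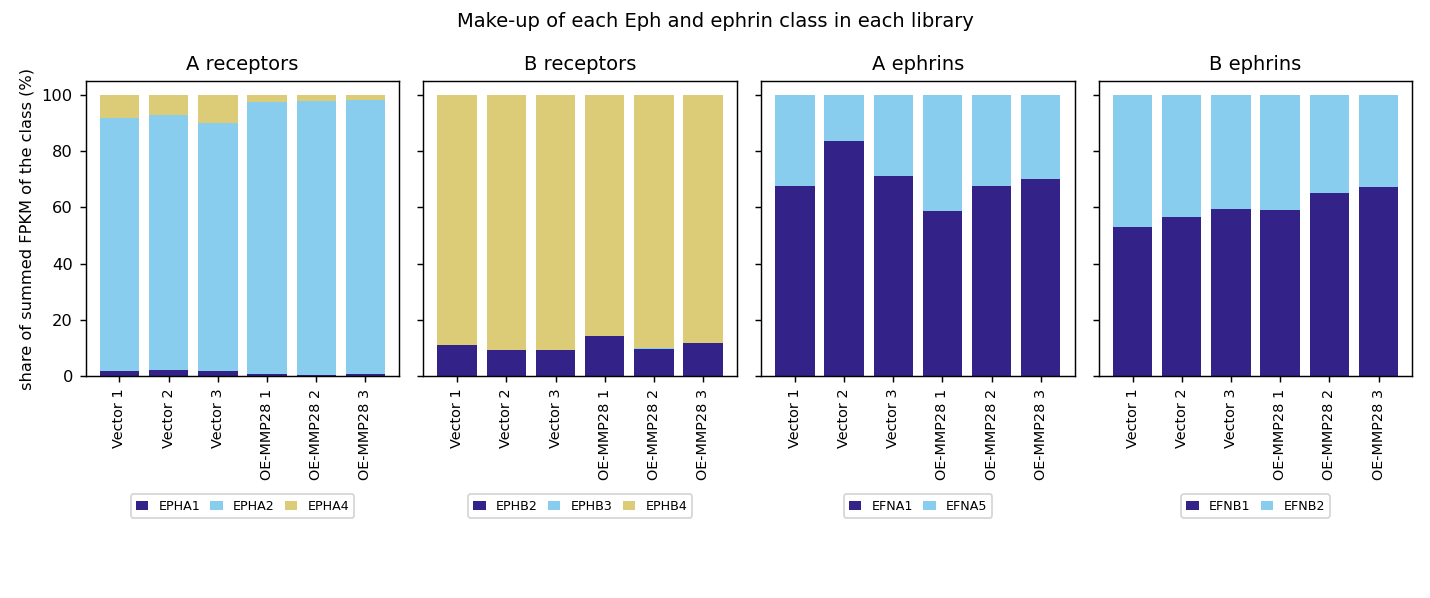
Share of each member in the summed FPKM of its class (vertical axis, percent) in each of the 6 libraries, for the A receptors, B receptors, A ephrins and B ephrins among the members. EPHA4 and EPHA1 shrink to 2.59% and 0.682% or less of the A receptors in the OE-MMP28 libraries, and EPHB4 makes up at least 85.8% of the B receptors in every library.

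Of the 12 other Eph and ephrin genes, 5 could be tested, of which 1 rose and 2 fell, a called share of 60% beside 23.4% of all genes. The rising gene was called in all 18 alternative fits, whereas the falling genes numbered 1 when any library other than Vector replicate 1 was left out and 0 with either limma fit on FPKM. EPHB6 (ENSG00000106123, chromosome 7, 142855061 to 142871094, plus strand), a receptor whose kinase domain is inactive, had 2.98, 3.04 and 3.06 FPKM in the Vector libraries. It had 6.64, 9.80 and 8.59 FPKM in the OE-MMP28 libraries, every one above every Vector library. Its log2 fold change was 1.47 (SE 0.18), larger in size than that of any member, at an adjusted p of 8.15e-06. EPHA10 (ENSG00000183317, chromosome 1, 37713880 to 37765133, minus strand), which also lacks an active kinase, fell from 1.55 ± 0.278 to 0.813 ± 0.266 FPKM (SD, 3 libraries). Its log2 fold change was -0.92, at an adjusted p of 0.00890.

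EFNA3 (ENSG00000143590, chromosome 1, 155078872 to 155087538, plus strand), a ligand encoded near EFNA1, had 1.78, 2.52 and 3.13 FPKM in the Vector libraries. It had 1.19, 1.26 and 1.56 FPKM in the OE-MMP28 libraries, with a log2 fold change of -0.88 and an adjusted p of 0.0357. EFNA4, its other neighbour in that ephrin group, had a log2 fold change of -0.52 at an adjusted p of 0.184, and EFNA2 one of 0.24 at an adjusted p of 0.507. AL691442.1, with no count in any library, covers 44.7% of the exon length of EFNA3 and 15% of that of EFNA4 on the same strand, so how reads in the shared stretch were counted is uncertain. The other 7 genes were at or near 0: EPHA3, EPHA5, EPHA6 and EPHA7 had no count in any library, EPHB1 and EFNB3 had 1 count in 1 library, and EPHA8 had 1 and 5 counts in Vector replicates 1 and 3 and 0 in the others.

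Genes that act at the activated receptor were examined next, 23 adaptors and kinases of which 21 were tested. Of these 4 rose, 3 fell and 14 did not pass, with a median log2 fold change of 0.029, and the 33.3% called stood beside 23.4% of all genes. With OE-MMP28 replicate 2 left out, 1 gene rose and 1 fell, where 985 and 1044 of 15700 genes did. Without Vector replicate 3 or OE-MMP28 replicate 3, 2 rose and 1 fell, without OE-MMP28 replicate 1, 2 rose, and without Vector replicate 2, 1 fell. SRC, the kinase that Eph receptors and B ephrins engage at contacts, fell from 14.1 ± 0.202 to 7.72 ± 0.785 FPKM (SD, 3 libraries), a log2 fold change of -0.85 at an adjusted p of 0.000478. PIK3R1, a regulatory subunit of PI3-kinase, rose from 2.92 ± 0.0896 to 5.15 ± 0.811 FPKM (SD, 3 libraries), a log2 fold change of 0.83. TNK2, a cytoplasmic tyrosine kinase, rose by 0.67 on the log2 scale (adjusted p 0.0106), beside a neighbour median of 0.44. NCK1, an adaptor to the actin cytoskeleton, rose by 0.54, beside a neighbour median of 0.65, and PTK2, the focal adhesion kinase, fell by 0.45 beside -0.42. LYN, a SRC family kinase, fell by 0.55 beside -0.39. FYN, of the same family, had counts of 6, 6 and 5 in the Vector and 14, 15 and 22 in the OE-MMP28 libraries. FYN passed the filter only through the OE-MMP28 group, so its place among the 4 is no evidence of a rise. With the neighbour offset 2 genes of this list were higher and 1 was lower, where 1309 and 1394 of all 15319 genes were.

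Phosphatases, proteases and trafficking factors of Eph receptors and ephrins formed the next list. All 20 were tested, 2 rose and 3 fell, and the 25% called was close to the 23.4% of all genes. CAV1, the coat protein of caveolae, had 28.3, 23.3 and 21.3 FPKM in the Vector libraries and 91.2, 83.5 and 74.1 FPKM in the OE-MMP28 libraries. Its log2 fold change was 1.78 (SE 0.16), at an adjusted p of 1.05e-07. ARF6, a GTPase of endocytic recycling, rose from 33.7 ± 2.51 to 73.3 ± 5.30 FPKM (SD, 3 libraries), a log2 fold change of 1.13 beside a neighbour median of 0.57. CBLB, a ubiquitin ligase of receptor kinases, fell by 1.19 and FLOT2, a scaffold of membrane rafts, by 1.01 on the log2 scale, with adjusted p-values of 0.000351 and 0.000242. ACP1, a phosphatase that acts on Eph receptors, fell by 0.42 beside a neighbour median of -0.44. ADAM10, which cleaves ephrins in complex with their receptor, had a log2 fold change of 0.20 at an adjusted p of 0.396.

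Partners of the B ephrins and proteins of cell contacts formed the last list, with 18 of 22 genes tested. Of these 2 rose and 6 fell, the median log2 fold change was -0.30, and 44.4% were called, against 23.4% of all genes (11.7% higher and 11.6% lower). The falling genes numbered 3 without Vector replicate 3 and 2 without OE-MMP28 replicate 3, and 1 gene rose without Vector replicate 3 or OE-MMP28 replicate 2. RGS3, which links B ephrins to G protein signalling, rose from 1.16 ± 0.121 to 2.15 ± 0.126 FPKM (SD, 3 libraries), a log2 fold change of 0.91 at an adjusted p of 0.000782. GJB2, a connexin, had 0.60. CLDN4, a claudin of tight junctions, fell from 107 ± 22 to 69.3 ± 12.3 FPKM (SD, 3 libraries), a log2 fold change of -0.61 at an adjusted p of 0.0135. CTNNB1, which links cadherins to actin and serves Wnt signalling, fell by 0.47 and CDH1, the epithelial cadherin, by 0.59, the latter beside a neighbour median of -0.31. GRIP2, a scaffold that binds the tail of B ephrins, had counts of 19, 13 and 10 in the Vector and 3, 0 and 4 in the OE-MMP28 libraries, and passed the filter only through the Vector group, so its place among the 6 is no evidence of a fall. With limma on log2(FPKM + 1) 0 genes of this list were lower at an adjusted p under 0.05, and with the neighbour offset 2 were. Over all genes 965 of 15218 and 1394 of 15319 were lower in these fits.

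**Figure D4:**
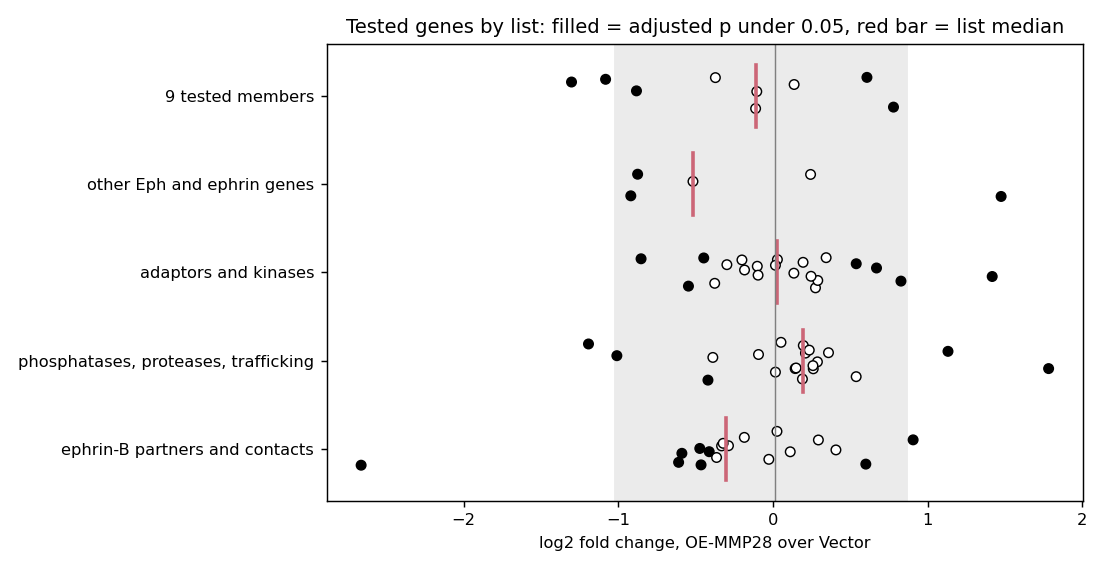
Log2 fold change of OE-MMP28 over Vector (horizontal axis) of the tested genes of each list (points, spread vertically for legibility, filled for an adjusted p under 0.05), with the list median as a red bar. The grey band spans the 5th to 95th percentile of all genes tested, -1.02 to 0.864, and EPHA4 and EPHA1 lie below it among the members.

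The genes most like EPHA4, the called member with the largest change, were sought among the 12257 genes whose mean level reached 1 FPKM. Likeness was the root mean square distance of log2 CPM over the 6 libraries, after each gene was centred on its own mean. The 3 nearest were PITRM1, a mitochondrial peptidase, at 0.109, SGTB, a co-chaperone, at 0.119 and ABCC2, an export pump, at 0.124 on the log2 scale. PITRM1 and ABCC2 lie on chromosome 10 and SGTB on chromosome 5. The part of changes shared with their neighbours in this likeness was not tested. PITRM1 had 18.9, 16.7 and 17.8 FPKM in the Vector libraries and 7.65, 7.01 and 7.15 FPKM in the OE-MMP28 libraries. With so many genes and 6 libraries such small distances are a description only.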

How the data were processed

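RNA selection was not given in the sources used here, and libraries were made with the NEBNext Ultra RNA kit. Per the labels, HISAT2 2.0.5 and featureCounts 1.5.0-p3 appear in the submitters' processing notes, while the build and the handling of strand and of multiply mapped reads were not given in the sources used here. The authors deposited whole-number read counts per gene and FPKM values (scaled to gene length and library total) for each of 6 libraries. All 58735 gene identifiers had the coordinates of GENCODE release 29 on GRCh38, and those are printed. The deposited table also held fold changes and p-values of the authors' own comparison, which were not used. Unmapped per-sample columns numbered 0.

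Genes were filtered with filterByExpr (minimum count 10, minimum total 15), scaled by TMM and tested with edgeR's quasi-likelihood test (edgeR 4.0.16, R 4.3.3), with group alone in the model and Benjamini-Hochberg adjustment over 15319 genes. Standard errors were taken from the test statistic. The threshold was an adjusted p of 0.05. Scripts were tested on simulated data. The neighbour value is the median of at least 10 tested genes within 10 Mb on the same chromosome. Alternatives left out each library, added the replicate number as a block, changed the scaling, the filter or the genes kept, offset each gene by its neighbours, or used limma 3.58.1 and DESeq2 1.42.0, and limma on FPKM kept genes whose mean reached 0.5 FPKM.

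The members and gene lists were chosen with earlier results of these data known. All members were named, as were MMP28, any other Eph or ephrin gene, up to 6 called genes per list in order of adjusted p, and the 3 genes most like the called member with the largest change. ADAM10 and FYN were named outside that rule after their values were seen. A further gene list is not reported here. All 103 list entries matched by symbol.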

Additional observations from a re-analysis of the deposited data

How the results depend on the processing

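The 9 tested members were refitted under 18 alternatives, and 150 of 162 fits kept the direction and the side of the threshold. That total includes the members not called, which kept their side by staying uncalled. Of the called members, EPHA2 and EPHA4 kept their call in 18 of 18 fits, EFNB1 in 17, EPHA1 in 15 and EFNA1 in 11. With each library left out in turn, EPHA1 ranged from -1.31 to -0.97 on the log2 scale, EPHB2 from -0.19 to 0.0072, EFNA1 from -1.18 to -0.34 and EFNB1 from 0.53 to 0.71. EPHB2 turned direction without Vector replicate 1, and EFNA1 missed the threshold without Vector replicate 2, OE-MMP28 replicate 1 or OE-MMP28 replicate 2. With limma on log2(FPKM + 1) and log2(FPKM + 0.1) EPHA1 had -0.47 and -0.98 and EFNA1 -0.71 and -0.75, not past the threshold, and EFNA1 missed it with DESeq2 (-0.90) and limma voom (-0.74). The count of rising members was 1 to 2 and of falling members 1 to 3 in leave-one-out fits, the lowest without OE-MMP28 replicate 2, and 1 member fell with either limma fit on FPKM. The cause was not tested.

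Among the lists, leave-one-out counts ranged from 1 to 2 for the other Eph and ephrin genes that fell, from 1 to 4 and 1 to 3 for adaptors and kinases that rose and fell, and from 1 to 3 and 2 to 5 for ephrin-B partners. Leaving out any library other than Vector replicate 1 moved at least 1 of these counts by over 1.5 times. With either limma fit on FPKM these counts were 0 for the first, 1 and 1 for adaptors and kinases and 0 for falling partners. With the neighbour offset they were 2 and 1 for adaptors and kinases and 2 for falling partners, while 2703 of all 15319 genes were called. Over all genes 3579 were called, against 2367 without Vector replicate 3, 2029 without OE-MMP28 replicate 2, and 1974 and 1970 with limma on log2(FPKM + 1) and log2(FPKM + 0.1). The replicate block, with 3685 calls, changed no call of a member or MMP28 and moved no list count by over 1.5 times (EPHA2 0.77, EFNA1 -0.75), and libraries of the same number did not deviate together from their group means (correlations over genes of 0.017, 0.0080 and -0.088). EPHA1 had the lowest counts of the tested members, 31 to 79 per library, and the part of depth in its lost calls was not tested. EPHB3, with at most 4, could not be tested at this depth.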
